A study of Homo sapiens with 4 samples.

Results

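The replication-dependent histone genes are the clustered, multi-copy genes that supply the linker histone H1 and the core histones H2A, H2B, H3 and H4 during DNA synthesis. They were taken as every protein-coding row whose symbol begins with HIST1H, HIST2H, HIST3H or HIST4H, which gave 71 of the 58037 rows of the table. The rule uses names and biotype alone, not the measured values. Of the 71 genes, 50 had an adjusted p, 12 were read below the filter on low values and 9 had a mean of 0. None of the 50 tested genes passed the test between DROSHA knockdown and control cells, while 46 of them had a fold change below 0 per the authors' deposited table.

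RNA was sequenced from K562 cells, a human erythroleukaemia line in continuous culture. The control group was 2 libraries from cells infected with a non-specific CRISPR lentivirus. The knockdown group was 2 libraries from cells infected with a CRISPR lentivirus against DROSHA, the nuclear ribonuclease that crops primary microRNA transcripts. Both groups carried the lentivirus, were selected with puromycin at 2.5 ng/µl and were at passages 25 to 30, and the labels do not say whether the cells were clones or pools, or whether the 2 libraries of a group came from separate cultures. The p-values below therefore reflect only how far these 4 libraries scatter, which can be a technical spread.

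Most mRNAs end in a poly(A) tail, but replication-dependent histone mRNAs end just after a short stem-loop, which the stem-loop binding protein SLBP recognises and at which the U7 snRNP directs cleavage. Their transcription is driven in S phase by NPAT, a substrate of cyclin E and CDK2, at nuclear bodies that form at the gene clusters. The core histones pack DNA into nucleosomes and H1 binds the linker between them. Libraries of total RNA, as used here, can hold these tailless mRNAs, which poly(A) selection largely misses.

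The stem-loop is the sequence that sets these mRNAs apart, so it is shown for a member of each core class, with the paired stem and its loop in capitals and 5 flanking bases on either side. The coordinates are those of the 16 bases in capitals in hg38, read 5′ to 3′ on the gene's strand from GENCODE release 29 transcripts.

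HIST1H2AC (chr6:26124669-26124684, plus strand): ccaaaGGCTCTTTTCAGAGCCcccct
HIST2H2BF (chr1:149811885-149811900, minus strand): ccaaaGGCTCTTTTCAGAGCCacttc
HIST1H2BF (chr6:26199968-26199983, plus strand): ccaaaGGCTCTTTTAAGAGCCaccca
HIST1H3H (chr6:27810516-27810531, plus strand): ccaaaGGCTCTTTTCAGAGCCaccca
HIST1H4E (chr6:26205001-26205016, plus strand): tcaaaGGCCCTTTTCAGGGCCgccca
HIST1H4J (chr6:27824459-27824474, plus strand): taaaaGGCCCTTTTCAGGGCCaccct

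The histone 3′ stem-loop was searched on the strand of the transcript. It was found in 32 of the 71 members and in 26 of 19631 other protein-coding genes of the table, or 45.1% against 0.132%. The models of the other 39 members, among them those of all 6 H1 genes, do not hold these letters. Many of those models are short, such as 312 bases for HIST1H4K, 381 for HIST1H2BK and 411 for HIST1H3B. They may stop before the stem-loop, so a missing match does not show that a gene lacks it. All 8 H4 members with a match had the form with GGCCC on the left arm, and the 24 matches in H2A, H2B and H3 genes had GGCTC there. The gene models differ in how far they run. In 23 members at least 1 annotated transcript extended over 100 bases past the stem-loop, and in HIST1H2AC the longest did so by 1128 bases.

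The promoters also fall into kinds by class. The 100 bases before the annotated start are shown for the tested member with the lowest fold change in each class and for HIST1H4E, the member with the highest, with capitals for TATAAA (the TATA box), CCAAT and ATTTGCAT (the octamer), each on either strand. The sequences and positions are from RefSeq on GRCh38.p14.

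HIST1H1E (chr6:26156229-26156328, plus strand): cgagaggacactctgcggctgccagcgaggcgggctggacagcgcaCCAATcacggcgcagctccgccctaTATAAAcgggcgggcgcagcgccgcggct
HIST1H2AM (chr6:27893186-27893285, minus strand): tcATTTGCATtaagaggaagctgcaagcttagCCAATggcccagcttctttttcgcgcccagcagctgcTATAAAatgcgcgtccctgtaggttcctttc
HIST2H2BF (chr1:149812371-149812470, minus strand): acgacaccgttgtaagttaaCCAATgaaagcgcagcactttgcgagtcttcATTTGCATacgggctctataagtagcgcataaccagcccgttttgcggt
HIST1H3F (chr6:26250636-26250735, minus strand): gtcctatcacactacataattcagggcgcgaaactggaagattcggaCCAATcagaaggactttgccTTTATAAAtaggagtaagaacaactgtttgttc
HIST1H4K (chr6:27831561-27831660, minus strand): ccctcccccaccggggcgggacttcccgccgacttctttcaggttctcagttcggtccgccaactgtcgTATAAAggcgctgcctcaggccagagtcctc
HIST1H4E (chr6:26204510-26204609, plus strand): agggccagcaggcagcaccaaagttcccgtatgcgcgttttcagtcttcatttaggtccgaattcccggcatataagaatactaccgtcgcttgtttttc

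RefSeq promoters, running from 250 bases before to 50 bases after the start, matched 61 members. TATAAA was in 67.2% of them against 13.99% of 27305 gene promoters of the same length. CCAAT was in 83.6% against 39.7%, and in all 48 of the H1, H2A, H2B and H3 promoters but 3 of 13 H4 promoters. ATTTGCAT was in 42.6% against 2.19%, in 11 of 14 H2A and 14 of 18 H2B promoters and in 0 of 6 H1 and 0 of 13 H4 promoters. These are counts of letters, not of bound factors, and in HIST1H3F the letters of TATAAA on the 2 strands overlap. Paired H2A and H2B genes on opposite strands, with starts 218 to 330 bases apart, have promoter windows that overlap. The same ATTTGCAT can then be counted for both genes of a pair. In the 100 bases before the start, HIST1H2AM alone of the H2A genes held these letters, whereas several H2B genes did. The H2A count therefore does not show that the octamer is a feature of that class.

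The table gives 1 mean, 1 log2 fold change and 1 adjusted p per gene. The number of reads in each library was recovered as the one set of whole reads that returns the mean and the fold change. Where a gene had an adjusted p, it limited the spread between libraries that the fit could assume. Within the limits of the search, exactly 1 such set was found for 14110 of the 14231 tested genes, for 48 of the 50 tested histone genes and for all 12 histone genes below the filter. HIST1H1C and HIST1H1E had several and are given without values by library. The recovered libraries cannot be tied to the replicate numbers of the labels and are called control A and B and knockdown A and B. Their size factors, the depth of a library relative to the others, were 1.23 and 0.918 for the control and 1.09 and 0.813 for the knockdown libraries, while total reads per library are not known. Values are reads divided by the size factor, called normalised reads. A fold change is on the log2 scale and is knockdown over control, a direction read from the targeted gene.

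DROSHA stood at 6107 and 6077 normalised reads in control A and B and at 2734 and 2770 in knockdown A and B. It fell by 1.15 on the log2 scale (adjusted p = 8.11e-14, with a standard error of at most 0.135) per the authors' deposited table. Because its sign was used to set the direction, it is no check of the labels. Of the K562 markers, all 8 erythroid genes were read, from a mean of 4282 for GATA1 to 156201 for the embryonic globin HBE1, and the B-cell gene MS4A1 was at 0 per the authors' deposited table. Across all 14231 tested genes the median fold change was -0.03, 47 genes were called higher and 3 lower at an adjusted p under 0.05.

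The members were read lower in the knockdown libraries when summed. Summed over the 48 members with values by library, the normalised reads were 445542 in control A, 490801 in control B, 349337 in knockdown A and 401878 in knockdown B. Both knockdown libraries lay below both control libraries, and their mean sum was 80.2% of the control mean. With 2 libraries a group, an exact permutation of a single such value cannot give a two-sided p under 0.333. In bulk RNA, fewer cells in S phase and less histone mRNA per cell cannot be told apart.

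The median fold change of the 50 tested members was -0.33, against -0.03 for all tested genes. They ranged from -0.53 for HIST2H2BF to 0.40 for HIST1H4E per the authors' deposited table. Of the 50, 46 were below 0, where 54.9% of all tested genes were. The authors' test (DESeq2) called 0 members lower, where it called 0.0211% of all tested genes, and 0 higher, where it called 0.33%. At an implied unadjusted p under 0.05, 28 members were lower, where 3.2% of all tested genes were, and 0 were higher, where 3.6% were. At an adjusted p under 0.1, 1 member, HIST1H2AK, was lower, where 0.0492% of all tested genes were. The test limma on the recovered reads also called 0 members in either direction, and called 0.00709% of genes lower; 28 members were lower at its unadjusted p under 0.05, where 4.32% of genes were.

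**Figure D1:**
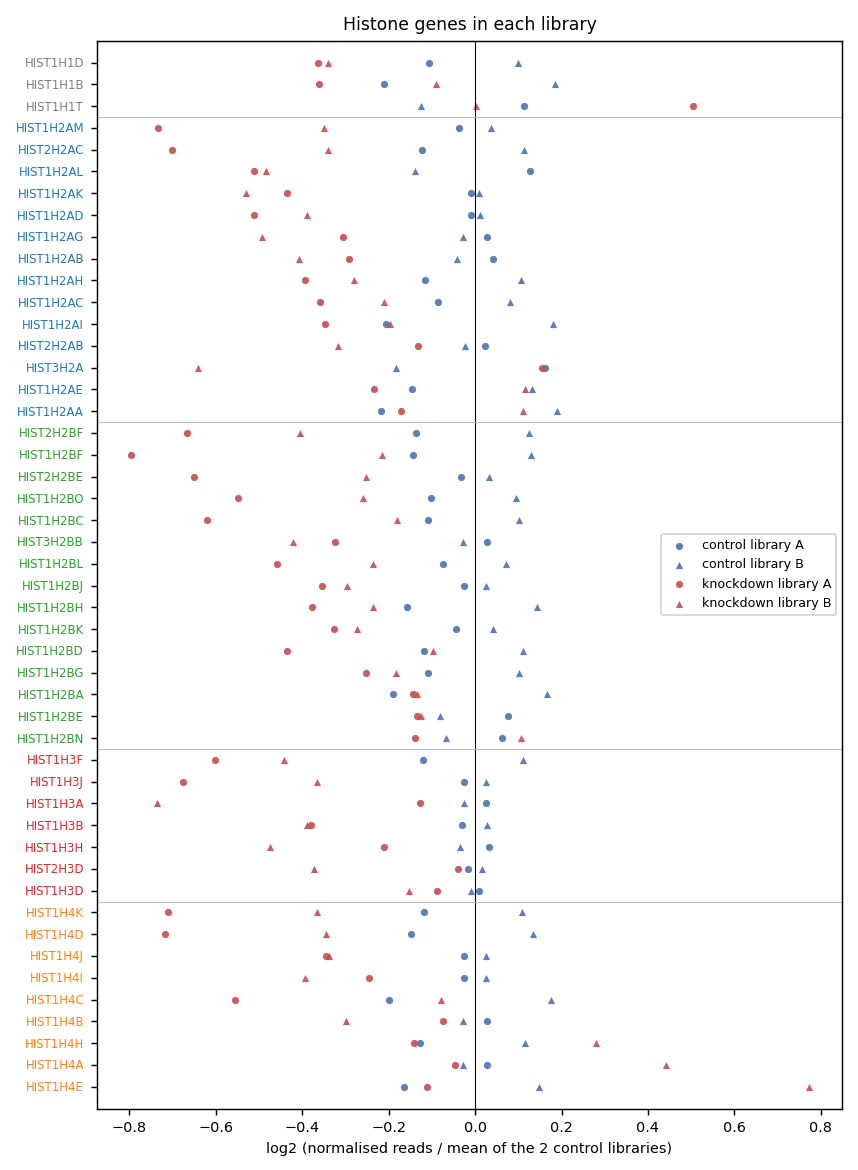
Each row is a histone gene with values by library, grouped by class (label colour, from H1 at the top to H4 at the bottom) and sorted by fold change, and the x axis is the log2 ratio of a library's normalised reads to the mean of the 2 control libraries. Blue marks are control and red marks knockdown libraries, circles library A and triangles library B; in 35 of 48 rows both red marks lie to the left of both blue ones, and in the last 3 H4 rows knockdown B lies to the right.

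Both knockdown libraries were below both control libraries in 35 of the 48 members, where this held for 23.1% of tested genes with recovered reads. The reverse order was found in 0 of the 48, against 18.6%. Knockdown A was the lowest of the 4 libraries in 31 members and knockdown B in 13, and control B was the highest in 32. The 13 members whose groups overlapped were HIST1H1T, HIST1H1B, HIST1H2AA, HIST1H2AE, HIST1H2AI, HIST3H2A, HIST1H2BA, HIST1H2BD, HIST1H2BN, HIST1H4A, HIST1H4C, HIST1H4E and HIST1H4H.

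The calls changed with the knockdown libraries that entered. Without knockdown B, limma called 10 members lower, where it called 0.659% of all genes; HIST1H2BF had the smallest adjusted p of them (0.000789) at a fold change of -0.79, with knockdown A then assumed to vary like the control group. The others, in order of adjusted p, were HIST1H2AM, HIST1H4K, HIST1H4D, HIST2H2AC, HIST1H3J, HIST2H2BF, HIST2H2BE, HIST1H2BC and HIST1H3F. Without knockdown A, limma called 0 members lower and HIST1H4E higher, at 0.78 (adjusted p = 0.00134), where 0.964% of all genes were called higher. Leaving out either control library gave 0 calls. Which of the knockdown libraries is the more typical was not tested.

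**Figure D2:**
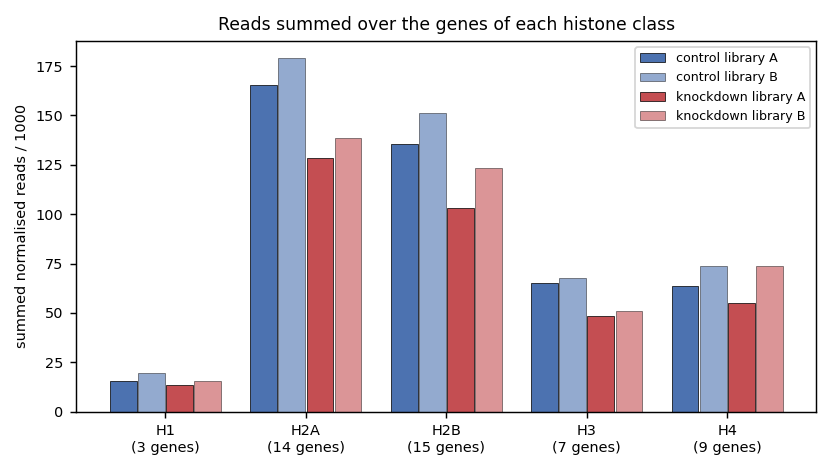
Bars give the normalised reads, divided by 1000, summed over the genes of each histone class with recovered reads in each library (blue control, red knockdown, darker A, lighter B), from a baseline of 0; the H1 bars leave out HIST1H1C and HIST1H1E, the H1 genes with the highest means. The knockdown bars are below both control bars in every class but H4, where knockdown B reaches 73633 beside 73885 in control B.

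H1 is the linker histone. Of its 6 genes 5 were tested, with a median of -0.22. Over the 3 with recovered reads the median was -0.40 without control A, -0.0087 without control B and -0.091 without knockdown A. HIST1H1C, which encodes H1.2, had the highest level per length of any tested member, 129193 normalised reads per kilobase of exon, and was listed at -0.09 (implied interval -0.42 to 0.23, adjusted p = 0.968) per the authors' deposited table. HIST1H1E, which encodes H1.4, was listed at -0.47 (implied interval -0.76 to -0.18, adjusted p = 0.175) per the authors' deposited table.

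HIST1H1D was read at 7015 and 8082 in the control and 5865 and 5968 in the knockdown libraries, and HIST1H1B at 8584 and 11293 against 7738 and 9328. The groups were apart for HIST1H1D, at -0.35 (adjusted p = 0.482) per the authors' deposited table, and overlapped for HIST1H1B, at -0.22 (adjusted p = 0.874). HIST1H1T, a linker histone known from the testis, was the member nearest the filter from above, with a mean of 40.7 and 39.8, 33.8, 52.2 and 36.9 normalised reads in control A and B and knockdown A and B. Its fold change of 0.28 had an implied interval from -0.75 to 1.31 per the authors' deposited table.

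The tested H2A genes were all below 0. Of 17, 14 were tested, with a median of -0.34 and a range from -0.53 to -0.02. In 10 both knockdown libraries were below both control libraries, where this held for 23.1% of all tested genes with recovered reads. HIST1H2AK, which had the smallest adjusted p of all members, was read at 4805 and 4863 in the control and 3575 and 3347 in the knockdown libraries. The control libraries lay close together, and both knockdown libraries were lower. Its fold change was -0.48 (implied interval -0.75 to -0.21, adjusted p = 0.099) per the authors' deposited table. All 50-base windows of HIST1H2AK lie in transcripts of HIST1H2BN on the opposite strand, and reads of the pair can be told apart only if strand was used in counting, a setting that is not given in the sources used here.

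HIST1H2AM stood at 19185 and 20198 in the control and 11849 and 15460 in the knockdown libraries, and its fold change of -0.53 (implied interval -0.83 to -0.22, adjusted p = 0.129) was the lowest of the class per the authors' deposited table. HIST1H2AD stood at 14153 and 14359 against 9998 and 10895, at -0.45 (adjusted p = 0.132) per the authors' deposited table. The groups were apart for both genes. HIST1H2AM shares 86.3% of its 50-base windows with the overlapping model of HIST1H3J, and HIST1H2AD shares 98.0% with AL031777.3 on the same strand, so their reads may be split or merged by the counting.

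HIST1H2AG was the H2A gene with the highest mean, at 34882 and 33530 in the control and 27694 and 24301 in the knockdown libraries, and a fold change of -0.40 (adjusted p = 0.270) per the authors' deposited table. Per length it did not lead: it had 13379 normalised reads per kilobase over a 2250-base model, while HIST1H2AM had 42425. HIST1H2AA, a gene known from the testis, stood at 206 and 272 against 212 and 258, with no separation. HIST1H2AL stood at 4477 and 3719 against 2877 and 2931, and HIST1H2AB at 4994 and 4718 against 3965 and 3660, with the groups apart in both. HIST2H2AC, listed at -0.51 (adjusted p = 0.179), and HIST2H2AB, at -0.22 (adjusted p = 0.835), are the tested H2A genes of the HIST2 cluster per the authors' deposited table.

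The tested H2B genes were also all below 0. Of 18, 15 were tested, with a median of -0.33 and a range from -0.53 to -0.01. In 12 both knockdown libraries were below both control libraries, where this held for 23.1% of all tested genes with recovered reads. HIST2H2BF, the lowest of the tested members, stood at 5436 and 6520 in the control and 3768 and 4513 in the knockdown libraries. Its fold change was -0.53 (implied interval -0.84 to -0.22, adjusted p = 0.134) per the authors' deposited table, and its model overlaps FCGR1A on the opposite strand. HIST2H2BE, the H2B gene with the highest mean, stood at 20193 and 21132 against 13161 and 17339, at -0.44 (adjusted p = 0.339) per the authors' deposited table. In both genes knockdown A was lower than knockdown B. HIST1H2BC, at 16606 and 19230 against 11651 and 15823, and HIST1H2BO, at 9909 and 11366 against 7269 and 8883, had the same order and did not overlap between groups.

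HIST1H2BN was the H2B gene nearest 0, at 5927 and 5417 against 5154 and 6102. Its annotated model runs from 27837760 to 27865798 on chromosome 6 and takes in HIST1H2AK and HIST1H2AL. As a ratio, HIST1H2BF had the widest gap between knockdown libraries of the H2B genes that were apart, with 7749 in A and 11594 in B below 12191 and 14735 in the control libraries. The testis gene HIST1H2BA was read at 418 and 535 against 431 and 434. HIST1H2BB was the member just below the filter, with a mean of 22.1 and values of 17.9, 31.6, 15.6 and 23.4.

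H3 genes had a median of -0.38 over 7 tested of 15. Both knockdown libraries were below both control libraries in all 7, where this held for 23.1% of all tested genes with recovered reads. Without knockdown B the H3 median was -0.21, the nearest to 0 of the 5 classes. HIST1H3J stood at 24713 and 25590 in the control and 15745 and 19509 in the knockdown libraries, at -0.51 (implied interval -0.80 to -0.22, adjusted p = 0.102) per the authors' deposited table. HIST1H3F stood at 4976 and 5850 against 3568 and 3986, at -0.52 (implied interval -0.81 to -0.23, adjusted p = 0.107) per the authors' deposited table. HIST1H3F shares 0 of its 50-base windows with another annotated transcript, so its reads are its own as far as windows of that size can tell.

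HIST1H3B, the H3 gene with the highest level per length, stood at 21903 and 22796 against 17179 and 17071. It was listed at -0.38 (adjusted p = 0.240) per the authors' deposited table, and the knockdown libraries lay closer together than the control libraries. HIST1H3A had its knockdown libraries far apart, at 422 and 277 below 469 and 452. HIST1H3D, at -0.12 (adjusted p = 0.940), and HIST2H3D, at -0.19 (adjusted p = 0.900), were the H3 genes nearest 0 per the authors' deposited table, and all windows of HIST1H3D are shared with AL031777.3.

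H4 held 3 of the 4 tested members above 0, the other being HIST1H1T. Of 15 genes 9 were tested, with a median of -0.30 and 6 below 0. In 5 both knockdown libraries were below both control libraries, where this held for 23.1% of all tested genes with recovered reads. HIST1H4K stood at 5632 and 6584 in the control and 3731 and 4743 in the knockdown libraries, at -0.53 (implied interval -0.85 to -0.21, adjusted p = 0.160) per the authors' deposited table. HIST1H4J stood at 4916 and 5099 against 3943 and 3962, at -0.34 (adjusted p = 0.474) per the authors' deposited table. HIST1H4K shares all its windows with HIST1H4J, so the split of reads between them is uncertain, and both were lower.

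HIST1H4E stood at 12889 and 16018 in the control and 13385 and 24670 in the knockdown libraries. Knockdown A lay between the control libraries and knockdown B above all, and the fold change of 0.40 had an implied interval from -0.50 to 1.29 (adjusted p = 0.935) per the authors' deposited table. HIST1H4A, at 972 and 935 against 923 and 1295, and HIST1H4H, at 6481 and 7671 against 6420 and 8592, also had knockdown B as the highest library, with knockdown A as the lowest. Without knockdown B the limma fold changes of HIST1H4E, HIST1H4A and HIST1H4H were -0.10, -0.046 and -0.14, so none of them stayed above 0 without that library. HIST1H4H was also below 0 without control A, at -0.047.

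By cluster, HIST1 on chromosome 6 held 55 of the genes, HIST2 on chromosome 1 held 12, HIST3 on chromosome 1 held 3 and HIST4 on chromosome 12 held 1. The median was -0.33 over 43 tested HIST1 genes, -0.44 over 5 HIST2 genes and -0.28 over 2 HIST3 genes. The HIST3 value was -0.53 without knockdown A and -0.085 without knockdown B. HIST4H4, the single HIST4 gene, was at 0. HIST1 falls into 3 blocks parted by more than 300000 bases: 26 tested genes of the first had a median of -0.27, 5 of the second -0.33 and 12 of the third -0.37. All 4 tested members above 0 were in the first block.

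**Figure D3:**
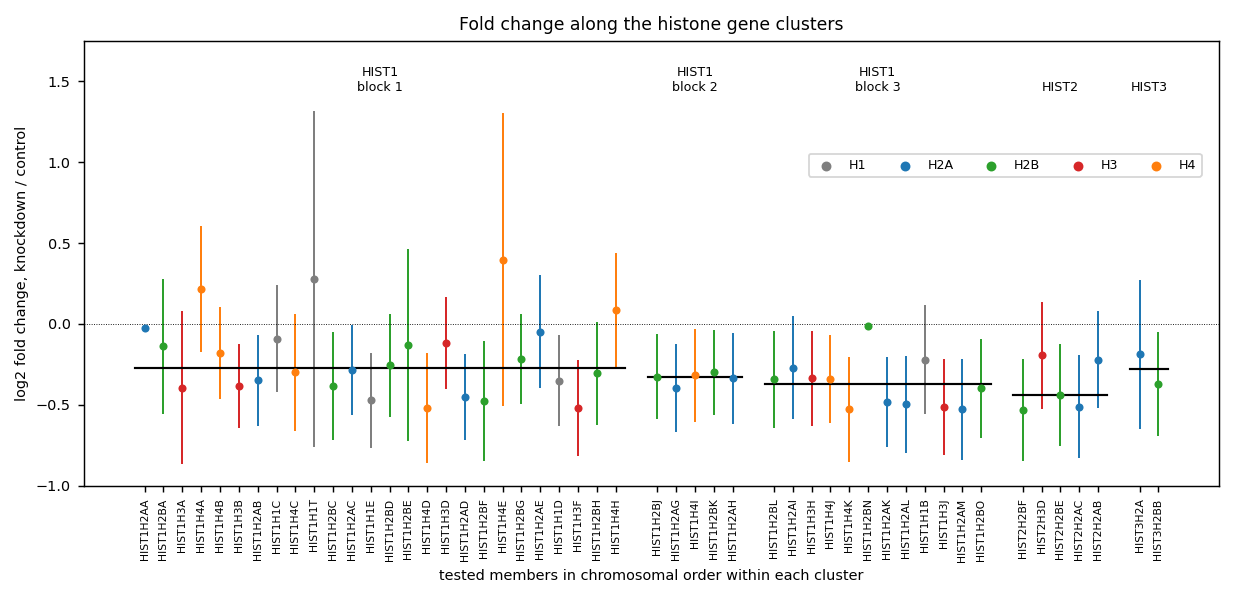
Points give the authors' log2 fold change of the 50 tested genes, in chromosomal order within each block of HIST1 and within HIST2 and HIST3, coloured by class, with vertical lines for the 95% interval implied by the adjusted p and horizontal bars for the medians. Intervals of HIST1H2AA and HIST1H2BN are not drawn because an adjusted p near 1 fixes no error; the medians run from -0.27 to -0.44.

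In the second block of HIST1, from 27125897 to 27147515, both knockdown libraries were below both control libraries in all 5 genes. Over all tested genes with recovered reads the share with this order was 23.1%. HIST1H2BJ stood at 14677 and 15207 in the control and 11683 and 12160 in the knockdown libraries, HIST1H2BK at 12437 and 13194 against 10220 and 10605, and HIST1H2AH at 16680 and 19460 against 13751 and 14876. HIST1H4I stood at 3888 and 4033 against 3341 and 3016. Summed over the block the reads were 82565 and 85423 against 66689 and 64958, so that knockdown A and B were near each other there. In the first block the sums were 194569 and 221493 against 159645 and 193833, and in the third 117499 and 128323 against 87185 and 100545, with knockdown B above knockdown A in both.

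In HIST2, all 5 tested genes were below 0 and had both knockdown libraries below both control libraries. Over all tested genes with recovered reads the share with this order was 23.1%. HIST2H2AC stood at 17611 and 20745 in the control and 11794 and 15143 in the knockdown libraries, HIST2H2AB at 2576 and 2491 against 2312 and 2033, and HIST2H3D at 1889 and 1933 against 1860 and 1477. In HIST3, HIST3H2BB stood at 1250 and 1203 against 979 and 916, at -0.37 (adjusted p = 0.562) per the authors' deposited table. HIST3H2A overlapped between groups, at 1954 and 1538 against 1945 and 1120, at -0.19 (adjusted p = 0.943) per the authors' deposited table, and its limma value without knockdown B was 0.17.

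H2A and H2B genes often sit head to head and share the stretch between their starts. Of 11 such pairs by the GENCODE models, with 218 to 330 bases between the annotated starts, 10 had both genes tested. Both were below 0 in all 10, and the 2 genes of a pair differed by 0.09 at the median and by at most 0.18 on the log2 scale. HIST1H2AK and HIST1H2BN are not among the 11, because the GENCODE model of HIST1H2BN begins before HIST1H2AK. Their RefSeq promoters lie on opposite strands and overlap. They stood at -0.48 and -0.01 per the authors' deposited table, further apart than the genes of any of the 10 pairs. The lowest pairs were HIST2H2AC with HIST2H2BE, HIST1H2AD with HIST1H2BF and HIST1H2AM with HIST1H2BO. The pair HIST1H2AA with HIST1H2BA, known from the testis, was nearest 0.

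**Figure D4:**
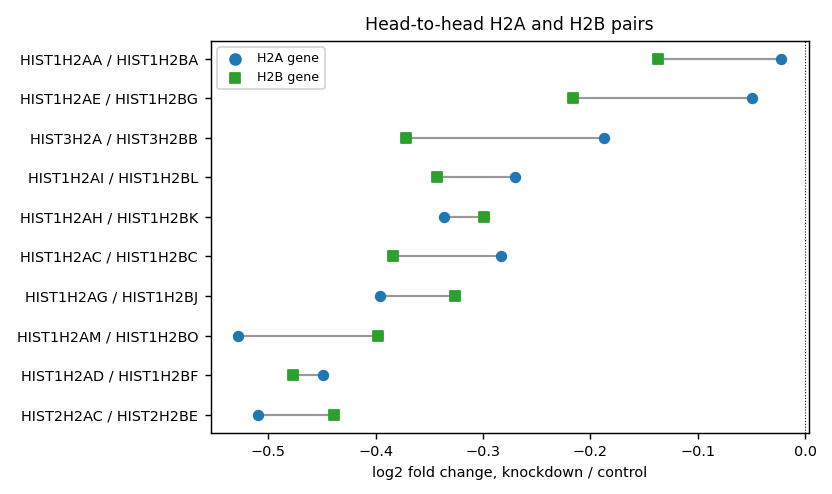
Each row is a head-to-head pair by the GENCODE models, with the authors' log2 fold change of the H2A gene (blue circle) and of the H2B gene (green square) joined by a line. HIST1H2AK with HIST1H2BN is not drawn. All values lie below 0, and the longest line, HIST3H2A with HIST3H2BB, spans 0.18.

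The features of the sequences were set beside the fold changes as a description. The 30 tested members with TATAAA in the promoter had a median of -0.34 and were all below 0, and the 15 without had -0.31 with 12 below 0. The 39 with CCAAT had a median of -0.33 with 38 below 0, and the 6 without had -0.26 with 4 below 0. The 22 with ATTTGCAT had a median of -0.34 and the 23 without had -0.32. By gene model, the median was -0.35 over 28 members with no stem-loop in the model, -0.31 over 16 that ran more than 100 bases past it and -0.26 over 6 that ended within 100 bases of it. Where 50% or more of a member's 50-base windows were shared with another gene, the median was -0.34 over 9 tested genes, and where fewer were, -0.33 over 41.

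Histone mRNAs are short, and short transcripts also stood below 0. Among other protein-coding genes with under 1000 bases of exon, 223 were tested, with a median of -0.14 and 156 below 0. Over the 92 of them with a mean of 1000 or more the median was -0.15. Recovered reads were at hand for 86 of these 92. Both knockdown libraries were below both control libraries in 36 of the 86, and the reverse was found in 4. Over 6575 other protein-coding genes of any length with a mean of 1000 or more it was -0.06. The part of transcript length in the histone values was not tested.

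The 12 members below the filter had means from 0.229 to 22.1 and no adjusted p, and they are HIST1H2BB, HIST2H4A, HIST1H2BM, HIST1H3E, HIST1H2AJ, HIST3H3, HIST1H3C, HIST1H1A, HIST2H3PS2, HIST1H2BI, HIST1H4G and HIST1H3G. At these depths a difference was not detectable. HIST2H4A, for example, had 9.75, 7.63, 11.9 and 14.8 normalised reads. The 9 at 0 were HIST4H4, HIST1H3I, HIST1H4F, HIST1H4L, HIST2H2AA3, HIST2H2AA4, HIST2H3A, HIST2H3C and HIST2H4B. HIST2H2AA3 and HIST2H2AA4 share 97.1% to 100% of their windows with each other, and HIST2H3A and HIST2H3C share all of theirs, so a count of 0 there does not show that the genes were silent. The same limit holds for HIST2H4B, at 0, which shares 97.2% of its windows with HIST2H4A, and for HIST2H4A, which shares 97.5% with HIST2H4B. Below the filter, HIST1H2AJ and HIST2H3PS2 share 83.7% and 100% of theirs with other genes. The 18 histone rows of other biotypes were not tested, and the highest mean among them was 13.8, for HIST1H2BPS2 per the authors' deposited table.

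The lists of related genes had medians nearer 0 than the replication-dependent genes, a difference that was not tested. Of 12 replacement histone genes, whose mRNAs are polyadenylated and made outside S phase too, 8 were tested. Of these, 0 were called, where 0.351% of all tested genes were. Their median was -0.05 with 6 below 0, where 54.9% of all tested genes were. H3F3B was listed at -0.15 (adjusted p = 0.910) and H3F3A at 0.98 (adjusted p = 0.102) per the authors' deposited table. H3F3A was read at 124 and 118 in the control and 269 and 209 in the knockdown libraries. Both genes encode H3.3, and H3F3A has near-identical copies elsewhere in the genome, so its value is uncertain.

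Of 22 genes of histone mRNA transcription and processing, all were tested and 0 were called, where 0.351% of all tested genes were. The median was -0.05 and 13 were below 0, where 54.9% of all tested genes were. LSM10, a subunit of the U7 snRNP, stood at 450 and 303 in the control and 595 and 738 in the knockdown libraries, at 0.82 (implied interval 0.37 to 1.27, adjusted p = 0.0858) per the authors' deposited table. CCNE1, cyclin E1, stood at 1476 and 1510 against 1085 and 1056, at -0.48 (implied interval -0.78 to -0.18, adjusted p = 0.196) per the authors' deposited table. The groups of both genes were apart and neither passed the test.

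SLBP stood at 7156 and 8283 in the control and 6577 and 6810 in the knockdown libraries, at -0.21 (adjusted p = 0.846) per the authors' deposited table. NPAT stood at 3610 and 3823 against 4018 and 3801, at 0.07 (adjusted p = 0.970) per the authors' deposited table. SLBP was lower in both knockdown libraries without passing the test, and NPAT overlapped between groups.

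Of 25 S-phase genes, all were tested and 0 were called, where 0.351% of all tested genes were. The median was -0.06 and 17 were below 0, where 54.9% of all tested genes were. PCNA, the sliding clamp of replication, stood at 10412 and 12395 in the control and 9839 and 8959 in the knockdown libraries, at -0.28 (adjusted p = 0.705) per the authors' deposited table. RRM2, a subunit of ribonucleotide reductase, stood at 8316 and 7755 against 9963 and 11327, at 0.41 (adjusted p = 0.275) per the authors' deposited table. MCM6, a subunit of the replicative helicase, was listed at 0.32 (adjusted p = 0.520) per the authors' deposited table. These genes thus lay on both sides of 0, and what part S-phase content has in the histone values was not tested.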

How the data were processed

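Total RNA libraries of 2 control and 2 DROSHA knockdown samples were prepared with a kit for stranded total RNA, per the labels' protocols. What the authors deposited is 1 table that compares the groups and gives, per the file headers, a mean normalised read count over all libraries (a signal), a fold change on the log2 scale and a p-value after adjustment for each gene. STAR 2.6.0a, Bowtie2 2.3.4.1, DESeq2 1.24.0 and the build hg38 appear in the submitters' processing notes. Which counter, strand option and annotation were used is not given in the sources used here. A second log2 column that the authors deposited was not used because its assay and direction are not stated. The table has 0 columns of single libraries.

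The adjusted p was inverted to an upper limit of the raw p, which gives an upper limit of the standard error and a 95% interval. Steps of low means gave 4 size factors. Whole reads were then searched that return the mean to the digits printed and the fold change of a negative binomial fit within 1.5e-06 on the log2 scale, with the libraries of a group at most 2.72-fold apart for means of 100 or more and no such limit below; of the other tested genes 98 had several sets, 16 had none and 7 were too large to search. The search was tested on simulated data. The reads were compared with limma 3.58.1 (R 4.3.3) on log2(normalised reads + 1), over all genes with 1 set. Intervals and tests cover the spread of these libraries, and for genes with few reads counting error dominates. Scripts ran on scipy 1.17.1, pandas 2.3.3, numpy 2.4.6 and Python 3.11.15. Gene positions, exon lengths and transcripts came from GENCODE release 29, where all 71 members matched by ID.

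The members, lists and markers were chosen with earlier results of these data known. Genes named were DROSHA, any called member, in each class the highest mean and the lowest and highest fold change, the 5 smallest adjusted p, all tested HIST2, HIST3 and HIST4 genes, members above 0, those next to the filter, and of each list the 2 smallest adjusted p with SLBP, NPAT and PCNA. Other members and genes named were chosen after their values were seen. Alternatives were other thresholds, re-centring, other filters, TMM scaling, a ratio of means and leaving out each library. Protein sequences were not analysed here.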

Additional observations from a re-analysis of the deposited data

How the results depend on the processing

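The count of members called lower was 0 at an adjusted p under 0.05, 1 under 0.1 and 28 at an unadjusted p under 0.05, and with a library left out it was 0 to 10 (0 to 1 higher). The test limma, added after the data were seen, and TMM scaling with or without a mean of at least 100 gave 0. The median of all members ran from -0.37 to -0.27 with a library left out, and 41 to 46 members were below 0. The class medians then ran from -0.40 to -0.0087 for H1, -0.37 to -0.34 for H2A, -0.38 to -0.24 for H2B, -0.39 to -0.21 for H3 and -0.34 to -0.21 for H4, and the cluster medians from -0.65 to -0.34 for HIST2 and -0.53 to -0.085 for HIST3. Re-centring on the median of all tested genes, -0.03, gave -0.32 for H2A, and dropping the filter gave -0.27 for H3, as its construction adds genes with few reads.

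Some single genes changed sign, among them HIST1H4E, the member with the highest fold change. Re-centred, HIST1H2AA was 0.0053 and HIST1H2BN 0.016. With a library left out, HIST1H2AA ran from -0.22 to 0.19, HIST1H2BN from -0.14 to 0.11, HIST1H4A from -0.046 to 0.44, HIST1H4E from -0.10 to 0.78, HIST1H4H from -0.14 to 0.29 and HIST3H2A from -0.63 to 0.17. The lone library of a group was then assumed to vary like the other group. No paired analysis was possible because the recovered libraries carry no replicate numbers. Depth limited the 12 members below the filter, whose largest mean was 22.1 normalised reads.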
